A study of Homo sapiens with 8 samples.

Results

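Uveal melanoma, the most frequent tumour arising within the eye, is assigned to a class of low or high metastatic risk from the expression of a small set of genes. The 10 genes described here belong to that classifier. They were taken by symbol from a deposited table of 18406 genes, and all 10 were present and abundant enough to be tested. The 8 class 1 markers, which are higher in tumours of low risk, were EIF1B, FXR1, ID2, LMCD1, LTA4H, MTUS1, ROBO1 and SATB1. The 2 class 2 markers, which are higher in tumours of high risk, were HTR2B and ECM1. The RNA came from 92.1 cells, a long-established line of human uveal melanoma, after 24 h under 4 conditions with 2 libraries each. The conditions were trametinib with panobinostat (the combination), 10 nM trametinib alone, 10 nM panobinostat alone, and the vehicle DMSO. The labels give 10 nM once for the combination, and that each drug was used at that dose is an assumption. The labels of the panobinostat libraries also call that drug a MEK inhibitor, and the drug name was followed here. All results come from 1 cell line, and whether the 2 libraries of a group stem from separate cultures is not stated, so the p-values refer to a spread that may be technical.

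Class 1 tumours keep features of differentiated melanocytes, whereas class 2 tumours usually carry inactivating mutations of BAP1 and spread to the liver. Trametinib blocks the kinases MEK1 and MEK2, which act below the mutant G alpha q proteins that drive most uveal melanomas. Panobinostat inhibits histone deacetylases and so raises histone acetylation. The classifier was built on tumours, and its genes have unrelated functions, among them transcriptional inhibition (ID2), chromatin looping (SATB1), axon guidance (ROBO1), microtubule binding (MTUS1), lipid mediator synthesis (LTA4H), serotonin sensing (HTR2B) and matrix assembly (ECM1).

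Promoter sequences are shown for 4 members on which the results below turn. SATB1 and ROBO1 are shown because they rose under every treatment, ID2 because the single drugs moved it in opposite directions, and ECM1 because it was the class 2 marker that rose with trametinib. The windows run from 250 bases before to 50 bases after a transcript start, are taken from RefSeq on GRCh38.p14, and are printed 5′ to 3′ on the gene's strand. Of the 10 members, 8 had an entry, with 13 windows in all. Capitals mark matches, searched on both strands, to any of 7 motifs that are spelled out after the sequences. No matches overlapped in the 4 printed windows. SATB1 is represented by 1 of its 4 windows, and ROBO1 by 1 of 2.
ECM1, chr1:150507859-150508158, plus strand: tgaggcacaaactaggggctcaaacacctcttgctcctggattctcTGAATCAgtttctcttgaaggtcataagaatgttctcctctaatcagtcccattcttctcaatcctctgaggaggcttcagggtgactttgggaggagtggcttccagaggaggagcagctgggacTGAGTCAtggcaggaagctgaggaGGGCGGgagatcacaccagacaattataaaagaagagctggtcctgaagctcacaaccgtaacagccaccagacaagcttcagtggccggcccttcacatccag
ID2, chr2:8681806-8682105, plus strand: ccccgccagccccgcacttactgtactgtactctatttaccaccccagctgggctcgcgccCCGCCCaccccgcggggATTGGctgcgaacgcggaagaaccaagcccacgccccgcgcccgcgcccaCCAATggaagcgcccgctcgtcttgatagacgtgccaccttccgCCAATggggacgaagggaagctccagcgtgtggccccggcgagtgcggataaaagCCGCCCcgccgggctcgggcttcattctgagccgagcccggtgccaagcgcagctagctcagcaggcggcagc
SATB1, chr3:18425290-18425589, minus strand: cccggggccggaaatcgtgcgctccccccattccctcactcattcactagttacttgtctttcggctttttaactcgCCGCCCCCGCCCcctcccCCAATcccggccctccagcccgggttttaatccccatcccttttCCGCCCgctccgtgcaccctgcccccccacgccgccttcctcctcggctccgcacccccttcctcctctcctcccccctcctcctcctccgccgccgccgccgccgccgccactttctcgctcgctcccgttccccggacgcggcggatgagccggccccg
ROBO1, chr3:79767949-79768248, minus strand: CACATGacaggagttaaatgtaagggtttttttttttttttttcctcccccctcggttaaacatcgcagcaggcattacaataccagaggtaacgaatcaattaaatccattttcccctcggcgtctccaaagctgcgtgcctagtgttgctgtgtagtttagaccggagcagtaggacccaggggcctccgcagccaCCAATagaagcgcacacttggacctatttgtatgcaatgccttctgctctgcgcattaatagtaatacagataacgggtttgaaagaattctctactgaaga

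ECM1 was the 1 member of the 8 with a match to TGANTCA, the motif of AP-1 factors. It had 2, at 204 and at 78 bases before its start, and 7.71% of the 35116 promoter windows in the RefSeq table hold that motif. The ETS motif CCGGAAG was found in 0 of the 8 members and in 10.3% of all windows. The E-box CACGTG was in EIF1B, 54 bases before its start, and in 7.26% of windows. The E-box form CATGTG, which the MITF family binds, was in ROBO1 at the far edge of its printed window and in 11.1% of windows. TGACG, the core of the cyclic AMP response element, was found in 4 members and 24.6% of windows. The GC box GGGCGG was found in 5 members and 45.0% of windows, and the CCAAT box in 5 members and 34.6% of windows. A member counted if any of its windows held a match, whereas the shares are of single windows. Of the 13 windows of the members, 6 held TGACG, 8 the GC box and 8 the CCAAT box. ID2 held 3 CCAAT matches and 2 GC box matches. These matches describe the letters of the windows and were not measured as binding sites.

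The deposited values were normalised signal, and each was a whole number of reads multiplied by a library's fixed step. Libraries held 6897784 to 16861001 recovered reads, with a step of 0.602 to 1.52 deposited units a read. Trametinib replicate 2 stood apart, with 5362 genes at 0, against 3743 in trametinib replicate 1 and 2222 to 2890 in the other 6 libraries. The correlation between replicates was 0.897 for trametinib and 0.974 to 0.991 for the other groups. Called changes of named genes between trametinib and vehicle are therefore also given without each of its libraries. The melanocytic markers MITF, MLANA, PMEL, TYR, TYRP1, DCT and SOX10 were all measured, with summed values of 137486 to 138966 in the combination, 167229 to 175142 with trametinib, 99938 to 103741 with panobinostat and 103558 to 111479 with vehicle. The sums follow mainly TYRP1 and PMEL, the markers with the highest values. DCT was low with vehicle (14.4 and 4.75) and panobinostat (5.10 and 10.1), against 1984 and 1912 with trametinib and 258 and 236 in the combination. MLANA was lower in the combination (4466 and 4155) than with vehicle (5275 and 5464). Macrophage and endothelial markers summed to at most 5.01 in any library, CD8A was the 1 T cell marker in the table (11.1 to 75.3), and epithelial markers summed to 20.5 to 125. The 5 fibroblast markers, of which COL1A1 and LUM reached a mean of 10, summed to 1218 to 1276 in the combination, 761 to 1020 with trametinib, 969 to 1000.3 with panobinostat and 391 to 410.1 with vehicle. The sum was thus higher in all treated libraries, as SATB1, ROBO1 and MTUS1 were. COL1A1 had values of 608 and 774 in the combination, 511 and 821 with trametinib, 509.7 and 593 with panobinostat, against 133 and 149 with vehicle. LUM had 592 and 502 in the combination, 246 and 169 with trametinib, 449.6 and 405 with panobinostat, against 255 and 259 with vehicle, so it was lower with trametinib. The part of these genes in those results was not tested. As a check of the trametinib label, DUSP6, a phosphatase induced by ERK, was listed at 3.51 and 4.56 in the combination, 0 and 0 with trametinib, 627 and 583 with panobinostat, against 577 and 567 with vehicle. In these bulk samples, fewer cells expressing a gene and less RNA per cell cannot be told apart.

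Trametinib raised most class 1 markers and split the class 2 pair. In limma's test across 13320 genes with Benjamini-Hochberg adjustment, 6 members were higher and 1 was lower with trametinib than with vehicle. Of all tested genes, 23.7% were higher and 27.4% lower, so the members lay more on the higher side than the table did. The rises were in FXR1, ID2, MTUS1, ROBO1, SATB1 and ECM1, and the fall was in HTR2B. The median change of the 8 class 1 markers was 0.39 (log2), against -0.07 over all tested genes.

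Panobinostat raised 4 members and lowered 2 relative to vehicle, where 15.0% of all tested genes were higher and 15.6% lower. LTA4H, MTUS1, ROBO1 and SATB1 rose, and ID2 and HTR2B fell. In fits of only the groups compared, FXR1 also passed with panobinostat and no longer passed with trametinib. The combination raised 4 and lowered 1 relative to vehicle, where 24.5% of all tested genes were higher and 25.5% lower, so its members passed about as often as the table did. ID2, MTUS1, ROBO1 and SATB1 rose and LMCD1 fell. The 3 comparisons share the vehicle libraries and are not independent of each other. The vehicle and trametinib libraries carry a genome build in the submitters' notes and the panobinostat and combination libraries do not, so in comparisons across that line the drug and this labelled difference cannot be told apart.

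**Figure D1:**
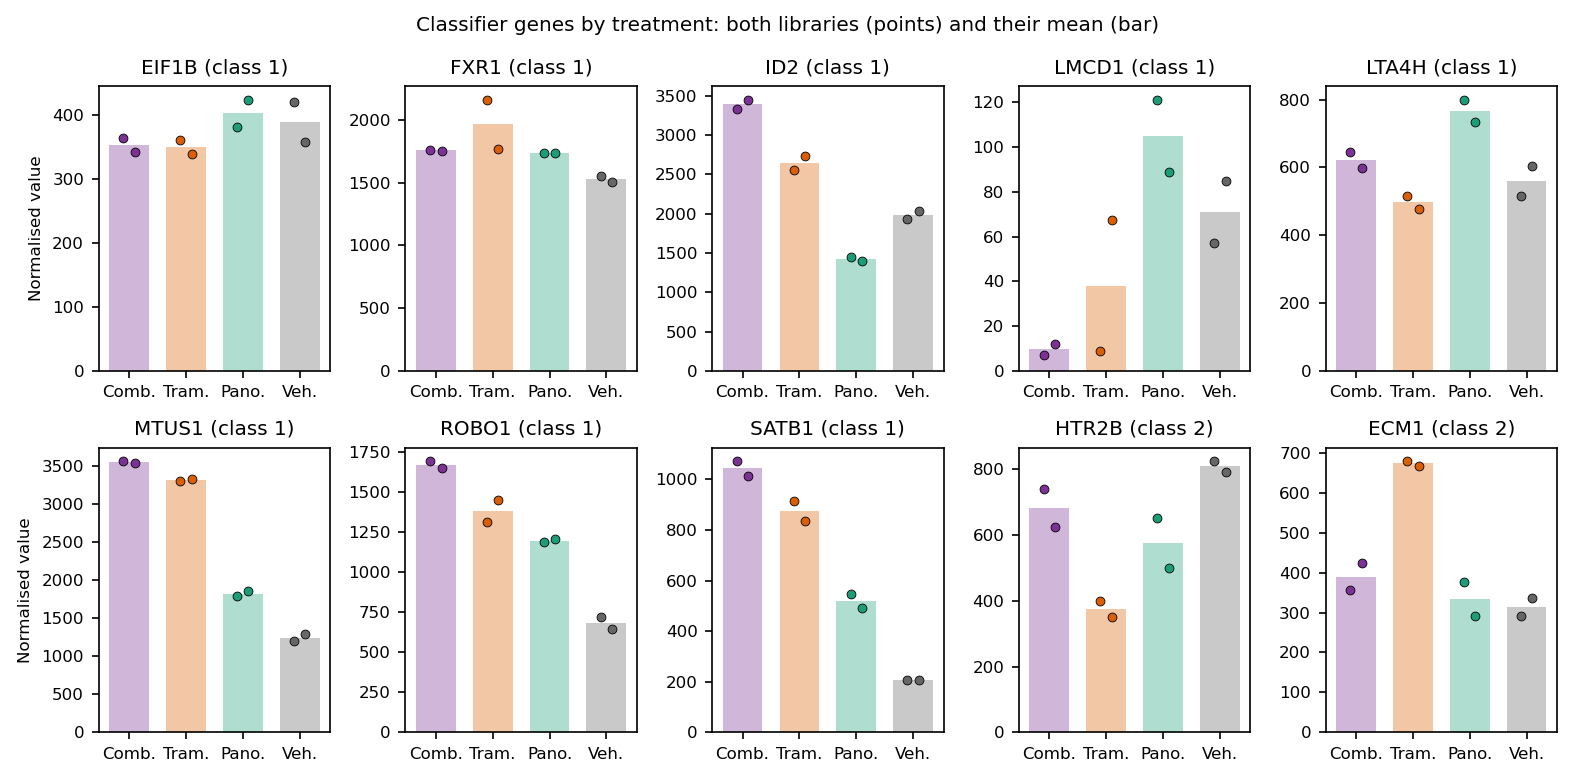
Normalised value of each of the 10 classifier genes, on a linear axis from 0, in both libraries (points) and their mean (bar) for the combination, trametinib, panobinostat and vehicle. SATB1, ROBO1 and MTUS1 step down in that order, ECM1 is highest with trametinib, and the trametinib libraries of LMCD1 lie at 9.03 and 67.3.

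SATB1, ROBO1 and MTUS1 were the members that passed in the same direction under all 3 treatments. FXR1 also lay above vehicle and HTR2B below it in every treated library, but neither passed in all 3 comparisons. SATB1 encodes a protein that anchors chromatin loops and recruits chromatin modifiers. Its normalised values were 1072 and 1015 in the combination, 915 and 834 with trametinib, 546 and 492 with panobinostat, against 209 and 207 with vehicle. No 2 groups overlapped. Relative to vehicle, SATB1 rose by 2.32 ± 0.11 with the combination (log2, SE, limma adjusted p = 4.14e-07), 2.07 ± 0.11 with trametinib (6.49e-07) and 1.32 ± 0.11 with panobinostat (4.9e-05). These log2 estimates correspond to factors of 5.00 for the combination, 4.19 for trametinib and 2.49 for panobinostat. The step between trametinib and panobinostat passed (0.75, limma adjusted p = 0.000621). That between the combination and trametinib did not (0.26, limma adjusted p = 0.109, 95% interval up to 0.51). That step was 0.32 without trametinib replicate 1 and 0.19 without replicate 2.

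ROBO1, a receptor for SLIT ligands that guides axons and migrating cells, had values of 1690.5 and 1646 in the combination, 1309 and 1448 with trametinib, 1184 and 1207 with panobinostat, against 717 and 643 with vehicle. The groups again did not overlap, and all treated libraries lay above both vehicle libraries. Its log2 rise over vehicle was 1.30 ± 0.09 with the combination, 1.02 ± 0.09 with trametinib and 0.81 ± 0.09 with panobinostat (SE, limma adjusted p = 3.45e-06, 1.38e-05 and 0.00021 in that order). The combination exceeded trametinib by 0.28 (limma adjusted p = 0.0410). That call ended with TMM scaling, with edgeR, in a fit of only these groups and in limma's fits without any 1 library other than trametinib replicate 2, with an adjusted p of 0.167 without combination replicate 1. Trametinib and panobinostat differed by 0.20 (limma adjusted p = 0.0975, 95% interval 0.0013 to 0.41). That difference was 0.28 without trametinib replicate 1 and 0.13 without replicate 2.

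MTUS1, a microtubule-associated protein described as a growth suppressor, had values of 3567 and 3538 in the combination, 3306 and 3332 with trametinib, 1789 and 1858 with panobinostat, against 1197 and 1293 with vehicle. Here trametinib and the combination formed an upper pair of groups. MTUS1 rose over vehicle by 1.51 ± 0.07 with the combination, 1.42 ± 0.07 with trametinib and 0.55 ± 0.07 with panobinostat (log2, SE, limma adjusted p = 2.23e-07, 2.61e-07 and 0.000349 in that order). The combination and trametinib differed by 0.10 (95% interval -0.05 to 0.25, limma adjusted p = 0.283). Without trametinib replicate 1 and without replicate 2, the change with trametinib was 1.42 and 1.41 for MTUS1, 1.09 and 0.95 for ROBO1, and 2.00 and 2.13 for SATB1.

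ID2 was the member that the single drugs moved in opposite directions. It encodes an inhibitor of basic helix-loop-helix transcription factors that lacks a DNA-binding region. Its values were 3329 and 3452 in the combination, 2561 and 2739 with trametinib, 1451 and 1395 with panobinostat, against 1930.1 and 2031 with vehicle. The 4 groups were fully separated, and panobinostat alone lay below vehicle. ID2 rose by 0.78 ± 0.07 with the combination (log2, SE, limma adjusted p = 1.52e-05) and 0.42 ± 0.07 with trametinib (0.000737), and fell by 0.48 ± 0.07 with panobinostat (0.000913). All 6 pairwise steps passed, including the combination over trametinib by 0.36 (limma adjusted p = 0.00382) and over panobinostat by 1.25 (2.87e-06). The rise with trametinib was 0.47 without trametinib replicate 1 and 0.37 without replicate 2.

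With trametinib, ID1, ID3 and ID4 all fell where ID2 rose. ID1 and ID3 also fell with panobinostat, as ID2 did, whereas ID4 did not pass there. A list of the other ID proteins and the E proteins they bind had 5 tested genes. Of these, 1 was higher and 4 were lower with trametinib than with vehicle, with a list median of -1.14 against -0.07 over all genes. Of all tested genes, 23.7% were higher and 27.4% lower. With panobinostat 0 were higher and 3 lower (list median -0.91), where 15.0% of all tested genes were higher and 15.6% lower. Those 3 were TCF3 (-1.09, limma adjusted p = 3.64e-05), ID3 (-1.09, limma adjusted p = 0.00151) and ID1 (-0.91, limma adjusted p = 0.0196). ID1 had values of 196 and 151 in the combination, 27.1 and 24.1 with trametinib, 172 and 186 with panobinostat, against 318 and 358 with vehicle. Its trametinib libraries lay far below all others, and it fell by 3.67 with trametinib (log2, limma adjusted p = 2.26e-06). ID4 had values of 969 and 1139 in the combination, 304 and 151 with trametinib, 801 and 892 with panobinostat, against 1098 and 1067 with vehicle, a log2 change of -2.33 with trametinib (limma adjusted p = 6.29e-05). ID3 fell in both single-drug groups and in the combination, by 1.14 with trametinib and 0.80 with the combination. TCF3, which encodes the E proteins E12 and E47, also fell, by 1.06 with trametinib and 1.51 with the combination. Without trametinib replicate 1 and without replicate 2, the change with trametinib was -3.75 and -3.59 for ID1, -0.85 and -1.43 for ID3, -2.84 and -1.83 for ID4, and -1.05 and -1.08 for TCF3.

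**Figure D2:**
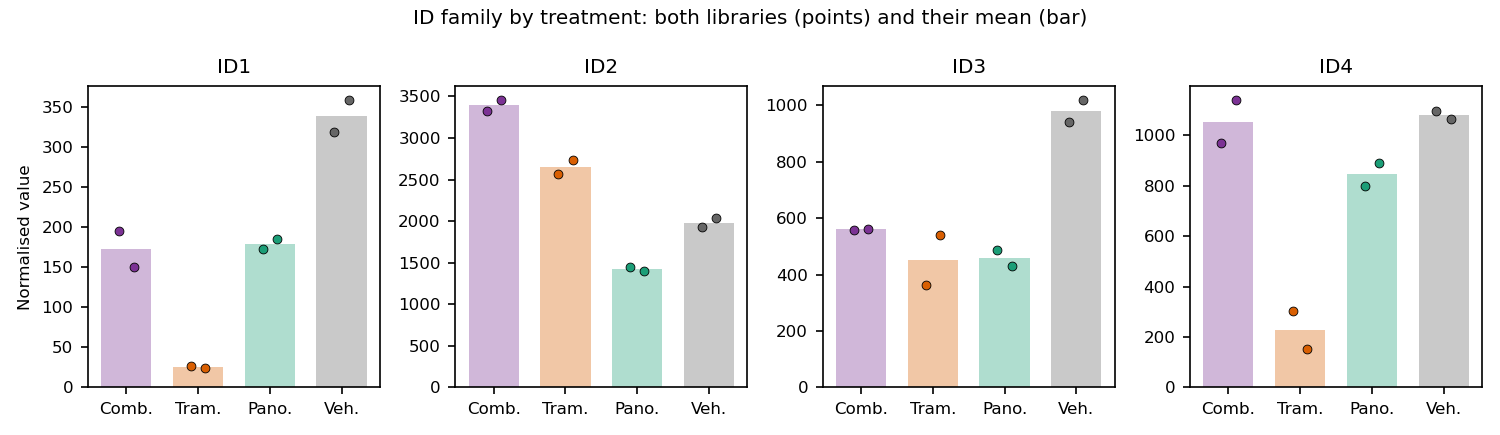
Normalised value of ID1, ID2, ID3 and ID4, each on its own linear axis from 0, in both libraries (points) and their mean (bar) of the 4 groups. With trametinib alone, ID2 lies above vehicle while ID1, ID3 and ID4 lie below it.

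Of the remaining class 1 markers, LTA4H passed against vehicle with panobinostat, FXR1 with trametinib and LMCD1 with the combination, while EIF1B passed with none. LTA4H, the hydrolase that makes leukotriene B4, had values of 645 and 599 in the combination, 516 and 478 with trametinib, 800.2 and 733 with panobinostat, against 515 and 604 with vehicle. The panobinostat libraries were the highest, and the trametinib and vehicle libraries overlapped. LTA4H rose by 0.46 ± 0.12 with panobinostat (log2, SE, limma adjusted p = 0.0180), a call that ended without vehicle replicate 1 (adjusted p = 0.176), panobinostat replicate 1 (0.134) or panobinostat replicate 2 (0.0600). Trametinib lay below panobinostat by 0.62 (-0.62, limma adjusted p = 0.00261). Combination and vehicle differed by 0.16 (95% interval -0.11 to 0.43), and trametinib and vehicle by -0.17 (95% interval -0.44 to 0.10).

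FXR1, an RNA-binding relative of the fragile X protein, had values of 1761 and 1751 in the combination, 2161 and 1764 with trametinib, 1736 and 1738 with panobinostat, against 1555 and 1502 with vehicle. All treated libraries lay above both vehicle libraries, and trametinib replicate 1 stood above its partner. FXR1 rose by 0.35 ± 0.09 with trametinib (log2, SE, limma adjusted p = 0.0115). That rise was 0.21 without trametinib replicate 1 and 0.50 without replicate 2, and it no longer passed without vehicle replicate 2 (limma adjusted p = 0.0767) or in a fit of only these groups. The changes with the combination (0.20, 95% interval -0.01 to 0.41) and with panobinostat (0.19, 95% interval -0.03 to 0.40) did not pass, but both passed when either trametinib library was left out, with adjusted p between 0.0112 and 0.0254.

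EIF1B, a close relative of the start-codon selection factor EIF1, had values of 363 and 342 in the combination, 361 and 339 with trametinib, 380.2 and 423 with panobinostat, against 419 and 357 with vehicle. Vehicle overlapped with all 3 treated groups. No comparison of EIF1B passed, and its changes against vehicle were -0.13 (95% interval -0.45 to 0.18) with the combination, -0.15 (-0.47 to 0.17) with trametinib and 0.05 (-0.27 to 0.37) with panobinostat. Most other factors of start-codon selection fell, and their difference from EIF1B was not tested. Of 7 tested, all 7 fell with the combination, 1 rose and 6 fell with trametinib, and 6 fell with panobinostat. Their median changes were -1.03, -0.90 and -0.47 in that order, against 0.03, -0.07 and 0.0021 over all tested genes, of which 25.5%, 27.4% and 15.6% were lower. EIF1AX, a factor that is mutated in some uveal melanomas of low risk, fell by 1.48 with the combination and 0.47 with panobinostat (log2, limma adjusted p = 1.98e-06 and 0.00484 in that order) and also passed as lower with trametinib (1.49e-06). EIF2S1, a subunit of the initiation factor that brings the first tRNA, fell by 1.14 with the combination, 1.01 with trametinib and 0.59 with panobinostat. The change with trametinib without trametinib replicate 1 and without replicate 2 was -1.40 and -1.60 for EIF1AX and -1.10 and -0.92 for EIF2S1. EIF1 itself had 8001 and 8327 in the combination, 14054 and 15785 with trametinib, 8796 and 8277 with panobinostat, against 10566 and 11661 with vehicle.

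LMCD1, a LIM-domain cofactor that restrains GATA6, was the member with the fewest reads, 6 to 119 per library. Its values were 7.02 and 12.2 in the combination, 9.03 and 67.3 with trametinib, 121 and 88.7 with panobinostat, against 57.2 and 84.7 with vehicle. Both combination libraries lay below all panobinostat and vehicle libraries, while the trametinib libraries disagreed with each other. LMCD1 fell by 2.78 ± 0.81 with the combination relative to vehicle (log2, SE, limma adjusted p = 0.0169) and by 3.35 ± 0.81 relative to panobinostat (0.0145). Each of these calls ended when any 1 library of the compared groups was left out, with adjusted p of 0.0533 to 0.112 against vehicle and 0.0649 to 0.118 against panobinostat. Both falls passed in the other 15 of 19 settings and kept their direction in all 19. They ranged from -3.14 to -2.38 against vehicle and from -3.71 to -2.92 against panobinostat. The change with trametinib was -1.43 ± 0.81 and did not pass (limma adjusted p = 0.166). It was -2.82 without trametinib replicate 2 and -0.05 without replicate 1, so 1 library decides its size. The combination against trametinib gave -1.35 (limma adjusted p = 0.226), or -2.73 without trametinib replicate 1 and 0.04 without replicate 2. It passed as lower with DESeq2 on the recovered reads (-2.02).

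The class 2 markers moved in opposite directions with trametinib, and neither passed in the combination against vehicle. HTR2B, a serotonin receptor coupled to G alpha q, had values of 739 and 625 in the combination, 399 and 352 with trametinib, 652 and 499 with panobinostat, against 825 and 793 with vehicle. Both trametinib libraries lay below every other library. HTR2B fell by 1.11 ± 0.15 with trametinib (log2, SE, limma adjusted p = 0.000234), a factor of 0.464 on that scale, and by 0.50 ± 0.15 with panobinostat (0.0317). The change with trametinib was -1.20 without trametinib replicate 1 and -1.02 without replicate 2. The panobinostat call ended without vehicle replicate 1 (adjusted p = 0.169), vehicle replicate 2 (0.128) or panobinostat replicate 2 (0.238). The combination did not pass against vehicle (-0.25, 95% interval -0.59 to 0.09, limma adjusted p = 0.196), although it did in a fit of only these groups. It lay above trametinib by 0.86 (limma adjusted p = 0.00234), or 0.95 without trametinib replicate 1 and 0.77 without replicate 2.

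ECM1 encodes a secreted protein that binds other matrix components. Its values were 356 and 423 in the combination, 679 and 667 with trametinib, 376 and 292 with panobinostat, against 291 and 336 with vehicle. The trametinib libraries were the highest, and panobinostat overlapped with the combination and with vehicle. ECM1 rose by 1.10 ± 0.16 with trametinib (log2, SE, limma adjusted p = 0.000393), 1.09 without trametinib replicate 1 and 1.12 without replicate 2. It lay lower in the combination than with trametinib (-0.79, limma adjusted p = 0.00540), a call that ended without combination replicate 1 (adjusted p = 0.0566). The changes with the combination (0.31, 95% interval -0.06 to 0.68) and with panobinostat (0.08, 95% interval -0.28 to 0.45) did not pass. Of 3 tested matrix partners of ECM1, 2 rose with the combination, 2 with trametinib and 1 with panobinostat, and 1 fell with trametinib. Of all tested genes, 24.5%, 23.7% and 15.0% rose in that order, and 27.4% fell with trametinib. Fibronectin (FN1) rose by 2.50 with the combination, 2.02 with trametinib and 1.14 with panobinostat (limma adjusted p = 8.18e-08, 1.43e-07 and 2.61e-05 in that order), with 2.01 and 2.03 for trametinib without its replicate 1 and replicate 2. FN1 thus stayed high in the combination, where ECM1 did not pass. FBLN1 was highest with trametinib (2150 and 2208, against 1698 and 1623 with vehicle). HSPG2 was lowest with trametinib (1478 and 1241) and highest in the combination (2100 and 2125).

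**Figure D3:**
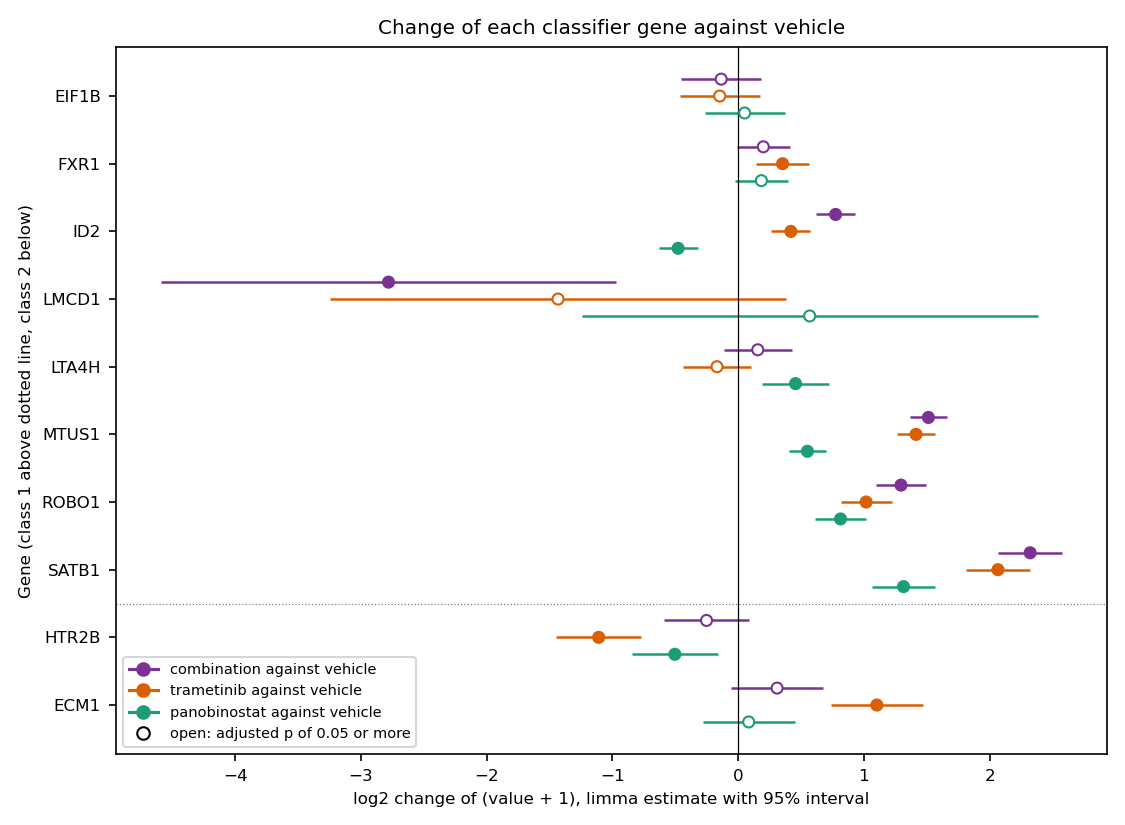
Change of each classifier gene against vehicle on the log2(value + 1) scale, as limma estimates with 95% intervals, for the combination, trametinib and panobinostat. Filled points passed at an adjusted p under 0.05. SATB1, ROBO1 and MTUS1 are filled and above 0 in all 3 comparisons, EIF1B is in none, and LMCD1 has the widest intervals.

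The classifier holds 2 further class 2 genes and 3 control genes that serve as its internal reference. RAB31, a small GTPase of vesicle traffic and a class 2 gene, had values of 935 and 1038 in the combination, 377 and 354 with trametinib, 963 and 1000.3 with panobinostat, against 602 and 716 with vehicle. Its libraries with panobinostat, alone or in the combination, were the highest and those with trametinib alone the lowest. RAB31 fell by 0.85 with trametinib and rose by 0.58 with panobinostat and by 0.58 with the combination, all past the limma threshold. The change with trametinib was -0.89 without trametinib replicate 1 and -0.80 without replicate 2. CDH1, the epithelial cadherin and the other class 2 gene, was near the detection limit and was not tested. Its values were 2.34 and 7.61 in the combination, 19.1 and 13.1 with trametinib, 4.08 and 2.02 with panobinostat, against 3.61 and 0.792 with vehicle.

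Of the 3 control genes, 2 rose with trametinib. MRPS21, a mitochondrial ribosomal protein, had values of 1049 and 995 in the combination, 1023 and 1320.1 with trametinib, 1372 and 1279 with panobinostat, against 1130.3 and 1195 with vehicle. RBM23, an RNA-binding protein, had 544 and 501 in the combination, 692 and 789.7 with trametinib, 478 and 466 with panobinostat, against 549 and 572 with vehicle. SAP130, a subunit of a histone deacetylase complex, had 1338 and 1176 in the combination, 1538 and 1853 with trametinib, 1445 and 1506 with panobinostat, against 1300.0 and 1211 with vehicle. RBM23 rose by 0.40 and SAP130 by 0.43 with trametinib in limma's test, and MRPS21 did not pass. These rises without trametinib replicate 1 and without replicate 2 were 0.49 and 0.30 for RBM23 and 0.56 and 0.29 for SAP130. The mean of the 3 controls lay 0.28 higher with trametinib than with vehicle (log2), and 0.10 lower with the combination than with vehicle (-0.10). Relative to that mean, the changes with trametinib became 1.79 for SATB1, 1.14 for MTUS1, 0.74 for ROBO1, 0.14 for ID2, 0.08 for FXR1, 0.83 for ECM1 and -1.38 for HTR2B. This scaling takes the same amount from every member of a comparison. It changed the sign of 1 member with panobinostat against vehicle, 1 in the combination against trametinib and 2 in trametinib against panobinostat. Of the members called in these comparisons, 0 changed sign.

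**Figure D4:**
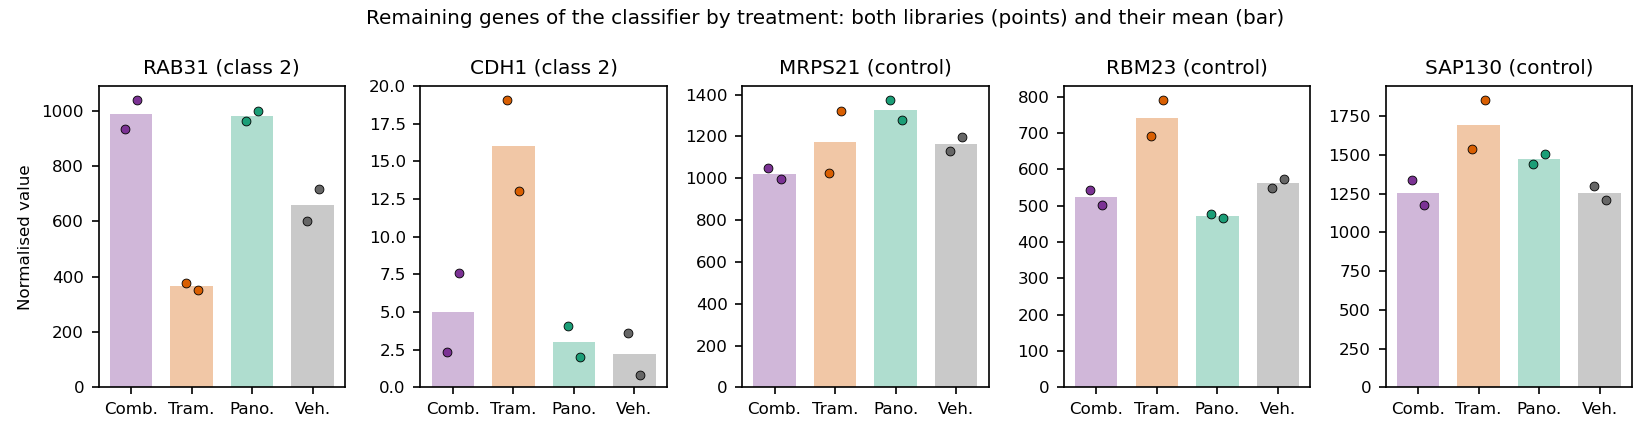
Normalised value of the remaining class 2 genes RAB31 and CDH1 and the control genes MRPS21, RBM23 and SAP130, each on its own linear axis from 0, in both libraries (points) and their mean (bar) of the 4 groups. RBM23 and SAP130 are highest with trametinib, and RAB31 is lowest there.

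Set against the single drugs, the combination differed in 4 members from trametinib and in 5 from panobinostat. Relative to trametinib, 3 members were higher (ID2, ROBO1 and HTR2B) and 1 lower (ECM1), where 17.6% of all tested genes were higher and 15.2% lower. Relative to panobinostat, 4 were higher (ID2, MTUS1, ROBO1 and SATB1) and 1 lower (LMCD1), where 10.9% of tested genes were higher and 13.1% lower. Trametinib against panobinostat gave 4 higher (ID2, MTUS1, SATB1 and ECM1) and 2 lower (LTA4H and HTR2B), where 18.7% of tested genes were higher and 23.4% lower. Without trametinib replicate 1 and without replicate 2, those 6 changes were 0.94 and 0.85 for ID2, 0.87 and 0.86 for MTUS1, 0.68 and 0.82 for SATB1, 1.01 and 1.03 for ECM1, -0.68 and -0.57 for LTA4H, and -0.70 and -0.51 for HTR2B. The HTR2B call ended without panobinostat replicate 1 (-0.41) and in a fit of only these groups.

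The libraries of the compared groups did not overlap for 8 members in the combination against vehicle, where 83.6% of all tested genes did not overlap. The same count was 7 for trametinib against vehicle (74.5% of tested genes), 8 for panobinostat against vehicle (77.2%), 8 for the combination against trametinib (61.8%), 8 for the combination against panobinostat (68.6%) and 10 for trametinib against panobinostat (67.5%). With 2 libraries a group, separation was thus frequent across the whole table.

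The interaction asks whether the combination departs from the sum of the log2 changes of the single drugs. It passed for 6 members, 2 higher and 4 lower than that sum, while 10.2% of all tested genes were higher and 9.04% lower than theirs. SATB1 stood at 2.32 in the combination, against a sum of 3.38, an interaction of -1.06 ± 0.16 (SE, limma adjusted p = 0.00168). ROBO1 stood at 1.30 against a sum of 1.83 (-0.54 ± 0.13, limma adjusted p = 0.0170), and MTUS1 at 1.51 against 1.97 (-0.45 ± 0.09, limma adjusted p = 0.00919). These 3 genes thus rose with each drug but by less together than the sum. ECM1 was also lower than its sum (-0.88 ± 0.23, limma adjusted p = 0.0270).

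ID2 and HTR2B exceeded their sums. ID2 stood at 0.78 in the combination, against a sum of -0.06, an interaction of 0.83 ± 0.10 (SE, limma adjusted p = 0.000431). HTR2B stood at -0.25, against a sum of -1.61, an interaction of 1.36 ± 0.21 (SE, limma adjusted p = 0.00216). Without trametinib replicate 1 and without replicate 2, the interactions were 0.78 and 0.88 for ID2, 1.45 and 1.27 for HTR2B, -0.99 and -1.13 for SATB1, -0.46 and -0.45 for MTUS1, -0.61 and -0.46 for ROBO1, and -0.86 and -0.89 for ECM1. The MTUS1 call ended without vehicle replicate 1 (adjusted p = 0.0568). The ROBO1 call ended without vehicle replicate 2 (0.0903) or any 1 panobinostat or combination library (0.0582 to 0.0750). The ECM1 call ended without either vehicle library (0.126 and 0.0608), panobinostat replicate 1 (0.114) or either combination library (0.107 and 0.0509).

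**Figure D5:**
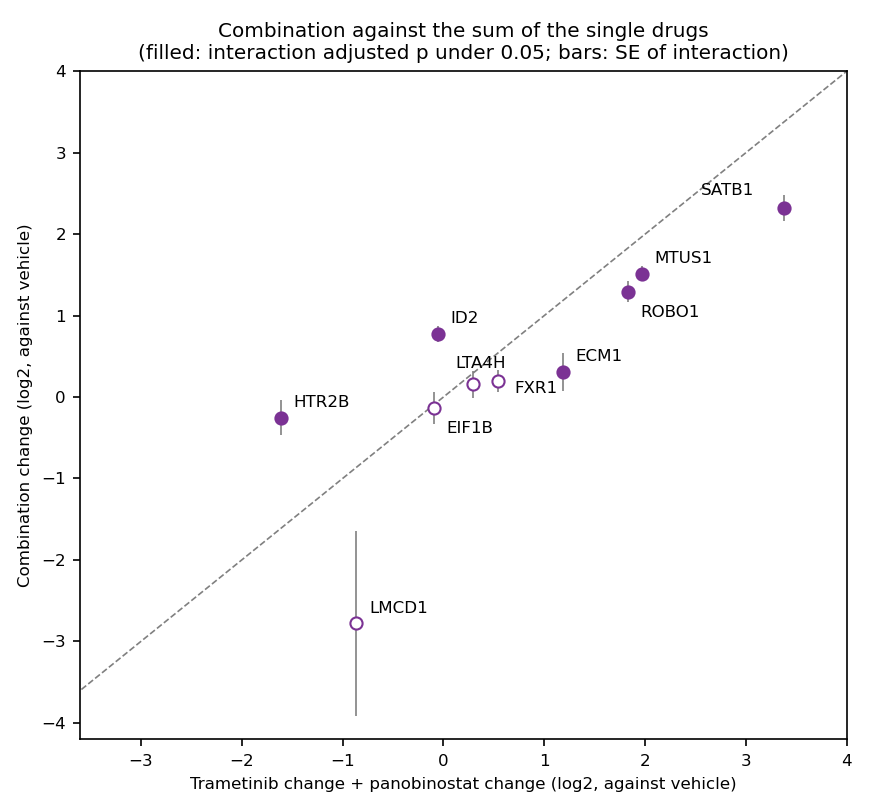
Log2 change of each classifier gene with the combination (vertical axis) against the sum of its changes with trametinib and panobinostat alone (horizontal axis), all relative to vehicle, with the SE of the interaction as bars. The dashed line marks equality. ID2 and HTR2B lie above it and SATB1, ROBO1, MTUS1 and ECM1 below it among the filled points, which passed at an adjusted p under 0.05.

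Across the 8 libraries, SATB1 and ROBO1 were the most alike pair of members (Pearson r = 0.978), followed by SATB1 with MTUS1 (0.969) and ROBO1 with MTUS1 (0.923). HTR2B and ECM1, the class 2 pair, ran opposite to each other (-0.807). These correlations describe 4 groups of 2 libraries that share their treatment. Among other genes with a mean of at least 50, those most like SATB1 were CABLES1 (r = 0.998), BASP1 (0.996) and FBXL20 (0.996). STX17 (0.998), PLBD2 (0.997) and LGALS3BP (0.996) were most like ROBO1. PDE4DIP (0.997), GPNMB (0.996) and SENP7 (0.996) were most like MTUS1. GPNMB, a melanosomal and lysosomal glycoprotein, had values of 48749 and 45273 in the combination, 43702 and 47762 with trametinib, 23587 and 23839 with panobinostat, against 14109 and 14439.8 with vehicle. For HTR2B the nearest genes were KTN1 (0.985), TMEM70 (0.966) and STK17B (0.963), and for ECM1 they were USP11 (0.990), OSCP1 (0.988) and ZNF704 (0.984). For ID2 they were FOXF2 (0.980), HLF (0.979) and GJC1 (0.971), and for LTA4H they were ORMDL3 (0.984), HCN2 (0.979) and ASPHD2 (0.957). The nearest to LMCD1 were EFR3B (0.967), CHAC1 (0.967) and RHBDF2 (0.962), to FXR1 SLC9A8 (0.966), GYG2 (0.964) and SMG6 (0.964), and to EIF1B CSNK1E (0.912), TPST2 (0.884) and PSMB2 (0.861).

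Several members share exonic bases with another gene in the GENCODE v29 annotation, and no source used here says if the counting used strand. MTUS1 overlaps PDGFRL on the opposite strand. PDGFRL had values of 327 and 315 in the combination, 279.8 and 394 with trametinib, 70.3 and 121 with panobinostat, against 22.3 and 28.5 with vehicle, and its order of groups resembled that of MTUS1. HTR2B overlaps PSMD1 on the opposite strand, which changed by -0.37 with trametinib (limma adjusted p = 0.00802). SATB1 overlaps TBC1D5 on the same strand, which rose by 1.08 with trametinib and 0.60 with the combination but did not pass with panobinostat (0.06). The change with trametinib without trametinib replicate 1 and without replicate 2 was -0.42 and -0.32 for PSMD1 and 1.14 and 1.02 for TBC1D5. The part of these partners in the values of MTUS1, HTR2B and SATB1 was not tested.

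Of the 8 class 1 markers, 5 lie on chromosome 3 (EIF1B, FXR1, LMCD1, ROBO1 and SATB1), the chromosome that class 2 tumours often lose. Chromosome 3 holds 717 of the 12860 tested genes with a chromosome assignment, or 5.58%. With trametinib, 22.7% of these were higher and 25.8% lower than with vehicle, near the 23.7% and 27.4% of all tested genes. With panobinostat the shares were 14.8% and 12.4%, against 15.0% and 15.6% of all tested genes. The tested genes of this chromosome thus changed about as often as the rest of the table.

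Counts for lists of genes around the members follow, to be read against the shares of all tested genes that were higher (24.5% with the combination, 23.7% with trametinib and 15.0% with panobinostat) or lower (25.5%, 27.4% and 15.6% in that order). Of 7 tested genes of SLIT and ROBO signalling, 4 rose and 3 did not pass with the combination (median 0.65), 2 rose and 1 fell with trametinib (median 0.24), and 4 rose and 3 did not pass with panobinostat (median 0.48). SLIT2, a ligand of ROBO1, had values of 273 and 213 in the combination, 76.2 and 53.2 with trametinib, 309 and 349.9 with panobinostat, against 148 and 151 with vehicle. It fell by 1.22 with trametinib (log2, limma adjusted p = 0.00239), where ROBO1 rose. ROBO2, a second SLIT receptor, had 742 and 823 in the combination, 1370.0 and 1541 with trametinib, 881 and 823 with panobinostat, against 947 and 896 with vehicle. It rose by 0.66 with trametinib (limma adjusted p = 0.000461). The change with trametinib without trametinib replicate 1 and without replicate 2 was -1.47 and -0.96 for SLIT2 and 0.74 and 0.57 for ROBO2.

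CTCF, which also shapes chromatin loops, fell by 1.14 with the combination, 0.34 with trametinib and 0.84 with panobinostat (log2, limma adjusted p = 2.48e-05, 0.0257 and 0.000514 in that order). The trametinib call ended without trametinib replicate 2 (-0.24, adjusted p = 0.0627). SATB1 rose in the same comparisons.

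Among 5 tested relatives and partners of FXR1, 1 rose and 1 fell in each comparison with vehicle. CYFIP2, which links the fragile X protein to actin control, had values of 934 and 917 in the combination, 48.1 and 82.4 with trametinib, 696 and 642 with panobinostat, against 87.3 and 76.8 with vehicle. It rose by 3.48 with the combination and 3.01 with panobinostat (log2, limma adjusted p = 3.4e-06 and 3.64e-05 in that order). CYFIP1 went the other way in these comparisons (-0.37 and -0.31, limma adjusted p = 0.0110 and 0.0381 in that order). FMR1 and FXR2 did not pass in any comparison with vehicle. Among 8 tested LIM proteins and partners of LMCD1, 5 rose and 1 fell with the combination (median 1.25), 1 rose and 1 fell with trametinib (median -0.17), and 3 rose with panobinostat (median 0.65). With trametinib both counts lay below the shares of all tested genes. FHL1, a LIM-only protein, had values of 2672 and 2706 in the combination, 404 and 714 with trametinib, 1733 and 1777 with panobinostat, against 719 and 706 with vehicle. It rose by 1.91 with the combination and 1.30 with panobinostat, whereas LMCD1 was lowest in the combination.

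Of 5 tested leukotriene genes, 1 fell with trametinib and 4 did not pass (median -0.32). PLA2G4A, the phospholipase that releases arachidonic acid, had values of 228 and 262 in the combination, 100.3 and 68.3 with trametinib, 295 and 287 with panobinostat, against 183 and 188 with vehicle, and fell by 1.15 with trametinib (limma adjusted p = 0.0022), with -1.43 without trametinib replicate 1 and -0.88 without replicate 2. ALOX5, which makes the substrate of LTA4H, was listed at 0 in all 8 libraries. Of the serotonin list, 9 genes were in the table and 0 reached a mean of 10, the highest being MAOA, a serotonin-degrading enzyme, with 23.4 and 16.7 in the combination, 5.01 and 0 with trametinib, 13.3 and 11.1 with panobinostat, against 4.21 and 2.38 with vehicle. Of 7 tested prognostic and driver genes, 3 fell with the combination (median -0.23), 3 with trametinib (-0.43) and 2 with panobinostat (-0.18), and the others did not pass. Of all tested genes, 25.5%, 27.4% and 15.6% were lower in these comparisons. BAP1, whose loss marks class 2 tumours, fell by 0.43 with trametinib (limma adjusted p = 0.0199), a call that ended without trametinib replicate 2 (-0.26, adjusted p = 0.0574). GNA11, a G alpha subunit that is often mutated in uveal melanoma, fell by 0.72 with the combination, 0.74 with trametinib and 0.75 with panobinostat. Its change with trametinib was -0.47 without trametinib replicate 1 and -1.01 without replicate 2.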

How the data were processed

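RNA from 8 libraries was sequenced from total RNA with the NuGEN Ovation kit for FFPE samples, per the labels' protocols. The deposited table holds 1 normalised signal value per gene symbol and library. Per the submitters' processing notes, TopHat2 2.0.13, Cufflinks 2.2.1 and DESeq2 were used, with build hs37d5 listed for 4 libraries. No source used here names an annotation. The signal values deposited by the authors were whole multiples of a step in each library, and division by it gave whole reads for 100% of values within 1e-06, the counts used in the alternative tests.

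Genes with a mean of at least 10 were tested with limma 3.58.1 under R 4.3.3, applied to log2(value + 1), with eBayes set to fit a trend. That scale understates the changes of genes with low values. All 8 libraries entered 1 fit (4 residual and 5.32 prior degrees of freedom), and the threshold was 0.05 after Benjamini-Hochberg adjustment. That fit shares 1 spread per gene among all groups, although the trametinib libraries agreed less with each other than those of other groups. Same-numbered libraries did not deviate together (correlations from -0.02 to 0.02), so no block was used. All 10 members were named, with the 3 genes most correlated with each among genes with a mean of at least 50, all other classifier genes, and up to 4 passing genes per related list. FMR1, FXR2, ALOX5, MAOA, DUSP6 and the genes overlapping a member were named outside this rule, after their values were seen. Members and lists were chosen with earlier results of these data known. Motifs were counted in RefSeq promoter windows of GRCh38.p14. Alternatives were other pseudocounts, filters and TMM scaling, edgeR 4.0.16 and DESeq2 1.42.0 on the recovered counts, a replicate block, fits of only the compared groups, and each library left out. The procedure was tested on simulated data with the same spread in every group. That test does not cover the wider spread of the trametinib libraries.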

Additional observations from a re-analysis of the deposited data

Results flagged for a closer look

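The effect of trametinib differed with and without panobinostat for 6 members, by the interaction test of limma. ID2 had an interaction of 0.83 (log2), with trametinib libraries above vehicle and combination libraries further above panobinostat. HTR2B had 1.36, since trametinib alone lay at -1.11 relative to vehicle and the combination at 0.25 relative to panobinostat. That 0.25 did not pass (limma adjusted p = 0.277), and the combination and panobinostat libraries overlapped. The other 4 were smaller with panobinostat present than without it, at -1.06 for SATB1, -0.88 for ECM1, -0.54 for ROBO1 and -0.45 for MTUS1. All 6 assume that each drug had the same dose in the combination as alone, and all share the trametinib libraries, of which replicate 2 stands apart. Their directions held without either trametinib library, and the calls of ECM1, ROBO1 and MTUS1 ended without single libraries of other groups.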

How the results depend on the processing

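Of 70 member comparisons, 39 passed, 28 of these passed in the same direction under every alternative setting run (19, or 18 for the interaction), and 0 of the 39 reversed. The exceptions that rest on single libraries stand beside their results. Reversals were among changes that did not pass. With single libraries left out, EIF1B lay between -0.064 and 0.168 for panobinostat, between -0.035 and 0.058 for the combination against trametinib and between -0.156 and 0.075 in the interaction. In the same settings ECM1 lay between -0.097 and 0.266 for panobinostat, and LMCD1 between -2.73 and 0.036 for the combination against trametinib. For the combination against trametinib, EIF1B was -0.012 with TMM scaling, -0.014 with edgeR and -0.070 with edgeR without trametinib replicate 2, where LMCD1 was 0.0076. With edgeR without trametinib replicate 1, EIF1B was 1.4e-05 in the interaction. FXR1 was -0.0097 with TMM scaling for the combination against panobinostat. The edgeR fits without 1 trametinib library were added after the data were seen. In all fits without 1 library, with limma or edgeR, the lone library of that group is assumed to vary like the other groups.

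The number of members that fell depended on the setting. It was 2 for the combination against vehicle and against panobinostat when only the compared groups were fitted or edgeR ran without either trametinib library. It was 2 for the combination against trametinib with DESeq2 or with edgeR without either trametinib library, 2 for trametinib against vehicle with edgeR without trametinib replicate 2, and 1 for trametinib against panobinostat with only these groups. With single libraries left out, members that fell numbered 1 to 2 for trametinib, 1 to 2 for panobinostat, 0 to 1 for the combination, 0 to 2 for the combination against either single drug, 1 to 3 for trametinib against panobinostat and 2 to 5 in the interaction. Members that rose numbered 5 to 6 for trametinib, 3 to 5 for panobinostat and 2 to 4 for the combination against trametinib. The replicate block changed 1 member call, that of ROBO1 in the combination against trametinib (2 members higher with the block). The numbers do not pair the libraries.

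Counts over all genes moved by over 1.5 times as follows. With only the compared groups, 3567 genes rose and 3768 fell with panobinostat, against 1994 and 2075 in the fit of all groups. In the same setting 1148 rose and 1108 fell in the combination against trametinib (2343 and 2020), 2602 and 2741 against panobinostat (1451 and 1740), and 1942 fell in trametinib against panobinostat (3111). With edgeR without trametinib replicate 1 and replicate 2, panobinostat raised 3518 and 3519 and lowered 3616 and 3607. The combination against panobinostat then had 2721 and 2717 higher and 3088 and 3088 lower, and the interaction 3599 and 2393 higher and 2702 and 2458 lower (1361 and 1204 in the fit of all groups). Without replicate 1, edgeR gave 4138 higher and 3332 lower for the combination against trametinib and 4675 lower for trametinib against panobinostat. With single libraries left out in limma, genes higher and lower ranged over 2177 to 3914 and 2482 to 5032 for trametinib, 1029 to 3368 and 918 to 3436 for panobinostat, and 2275 to 4484 and 2425 to 4461 for the combination. They ranged over 1243 to 4238 and 1240 to 3145 for the combination against trametinib, 714 to 2758 and 929 to 2989 against panobinostat, 1635 to 3439 and 1913 to 4690 for trametinib against panobinostat, and 617 to 3690 and 690 to 2525 in the interaction. TMM scaling, edgeR and DESeq2 did not move the median of all genes by over 0.1. The control-gene mean moved more, to -0.37 in the combination against trametinib. Depth limits LMCD1, at 6 to 119 reads, and CDH1.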
